A study of Mus musculus with 10 samples.

Results

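The *Gata* family comprises 6 protein-coding genes of the mouse, *Gata1* to *Gata6*, out of 22380 protein-coding genes of the GENCODE M1 annotation. The genes were chosen by name. Every deposited peak within 5 kb of one of their transcriptional start sites (TSS), in the gene body or within 100 kb of either end of the gene was collected, which gave 34 of the 50907 peaks of the series. The ChIP-seq data came from fetal liver (FL) cells of e14.5 embryos, either WT or Mtf2-null (labelled Pcl2-/-, a constitutive knockout made from gene-targeted C57Bl/6 ES cells aggregated with CD1 blastocysts). According to the paper, the line was afterwards bred on C57Bl6/J to keep that background. Cells were sorted into a CD71+Ter119-/lo fraction, called pro-erythroblasts, and a CD71+Ter119+ fraction (labelled CD71+Ter119high), called erythroblasts, with 500000 cells per sample. CD71 is the transferrin receptor and Ter119 is a surface marker of maturing red cells. H3K27me3 was profiled in both genotypes and both fractions, and Mtf2 in WT cells of both fractions, each library with an IgG control. The 10 libraries comprised 6 ChIP and 4 IgG libraries, 1 per condition, so no spread between replicates could be given and no test between conditions was made. Peak lists carry no expression values, so the identity of the sorted cells could not be checked against their marker transcripts. The embryos or litters that were pooled for a sort are not given in the sources used here.

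GATA factors are zinc finger proteins that bind DNA with the core letters GATA in enhancers and promoters. *Gata1*, *Gata2* and *Gata3* are the hematopoietic members. *Gata2* is active in stem and progenitor cells, *Gata1* takes its place at shared sites as red cells mature, and *Gata3* directs T cell development. *Gata4*, *Gata5* and *Gata6* act in heart and endoderm. H3K27me3 is the repressive histone mark placed by polycomb repressive complex 2 (PRC2), which commonly occupies CpG-rich promoters of developmental regulators. Mtf2 is an accessory protein of that complex that binds unmethylated CpG-rich DNA.

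The CpG content of the DNA under the peaks varied between and within the members, and the following 200-base stretches of NCBIM37 are examples from both ends of it, each written 5′ to 3′ on the strand of the gene with CpG dinucleotides in capitals. The first lies at the summit of the *Gata2* peak in WT CD71+Ter119-/lo cells. The second lies at the summit of the highest-scoring of the 4 *Gata2* peaks in WT CD71+Ter119+ cells. The next 4 lie at WT CD71+Ter119+ peak summits of *Gata3*, *Gata4* (a CpG-rich and a CpG-poor one) and *Gata5*. The *Gata3* summit is that of its lowest-scoring peak in that list. The last 2 lie directly upstream of 2 of the 3 start sites of *Gata1*, where no list had a peak.
Gata2, WT CD71+Ter119-/lo (chr6:88146031-88146230, + strand): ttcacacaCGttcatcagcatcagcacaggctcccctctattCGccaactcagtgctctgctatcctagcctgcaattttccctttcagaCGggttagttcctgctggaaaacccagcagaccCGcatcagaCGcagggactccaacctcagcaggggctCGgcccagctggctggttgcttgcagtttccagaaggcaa
Gata2, WT CD71+Ter119+ (chr6:88147172-88147371, + strand): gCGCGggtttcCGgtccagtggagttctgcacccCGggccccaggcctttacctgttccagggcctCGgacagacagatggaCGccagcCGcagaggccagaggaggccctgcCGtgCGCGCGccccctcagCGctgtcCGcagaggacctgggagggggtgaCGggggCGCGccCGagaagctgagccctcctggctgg
Gata3, WT CD71+Ter119+ (chr2:9802674-9802873, − strand): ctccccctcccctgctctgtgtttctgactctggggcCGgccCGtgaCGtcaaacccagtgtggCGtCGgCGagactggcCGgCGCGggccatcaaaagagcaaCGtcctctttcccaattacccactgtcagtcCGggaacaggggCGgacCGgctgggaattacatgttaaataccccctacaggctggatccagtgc
Gata4, WT CD71+Ter119+ (chr14:63874757-63874956, − strand): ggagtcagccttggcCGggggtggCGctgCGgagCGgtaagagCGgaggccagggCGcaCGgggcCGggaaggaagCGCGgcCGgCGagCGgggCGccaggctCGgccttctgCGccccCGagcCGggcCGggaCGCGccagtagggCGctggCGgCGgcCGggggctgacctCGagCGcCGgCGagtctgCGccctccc
Gata4, WT CD71+Ter119+, CpG-poor summit (chr14:63869860-63870059, − strand): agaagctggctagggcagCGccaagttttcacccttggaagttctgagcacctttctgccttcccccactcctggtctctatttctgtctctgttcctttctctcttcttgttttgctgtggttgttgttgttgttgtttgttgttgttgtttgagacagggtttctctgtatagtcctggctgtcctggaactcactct
Gata5, WT CD71+Ter119+ (chr2:180068757-180068956, − strand): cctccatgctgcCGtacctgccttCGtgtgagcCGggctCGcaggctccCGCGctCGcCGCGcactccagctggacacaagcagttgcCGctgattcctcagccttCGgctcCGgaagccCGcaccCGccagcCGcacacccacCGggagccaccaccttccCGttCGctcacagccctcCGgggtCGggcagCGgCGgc
Gata1, upstream of the TSS at 7545036 (chrX:7545037-7545236, − strand): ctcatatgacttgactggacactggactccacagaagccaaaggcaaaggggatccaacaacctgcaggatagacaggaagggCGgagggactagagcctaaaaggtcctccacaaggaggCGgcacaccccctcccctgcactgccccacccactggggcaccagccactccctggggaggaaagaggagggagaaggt
Gata1, upstream of the TSS at 7541292 (chrX:7541293-7541492, − strand): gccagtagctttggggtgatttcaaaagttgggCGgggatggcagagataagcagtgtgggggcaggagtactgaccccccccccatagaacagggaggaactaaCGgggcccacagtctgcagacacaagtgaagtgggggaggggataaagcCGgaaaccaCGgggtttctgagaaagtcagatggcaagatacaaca
The CpG-rich *Gata4* stretch held 30 CpG dinucleotides and the poor one 1, the highest and lowest of the 6 *Gata4* summits in that list. The WT CD71+Ter119+ stretches shown for *Gata5*, *Gata2* and *Gata3* held 22, 17 and 13. At the other WT CD71+Ter119+ summits the counts were 16, 8 and 3 for *Gata2*, and 14 and 2 within *Gata3*. The summit of the WT CD71+Ter119-/lo peak of *Gata2* held 6, inside the range of the erythroblast summits of that gene. The stretches upstream of *Gata1* held 2 and 4, at a GC content of 60% and 55.5%. None of the 6 stretches shown under peaks contained one of the GATA motifs described further on, and the stretch upstream of the *Gata1* start site at position 7541292 held 1.

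Depth ranged from 15669899 to 67169672 unique tags for the ChIP libraries and from 12345800 to 39667267 for IgG. The lists held between 1407 and 28918 peaks, and a missing peak means that the caller's cutoff was not passed in that library, not that the mark was measured as absent. Tags are sequenced reads after removal of duplicates, the score is −10 log10 of the peak's p, and the fold enrichment is relative to the local IgG background. Density is the number of tags per kb of peak and per 1000000 unique tags of the library. Intervals on tags are exact 95% Poisson intervals and cover counting error only.

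In WT CD71+Ter119+ erythroblasts 5 of 6 *Gata* genes carried H3K27me3 peaks inside the TSS window of 5 kb on either side, where 11.5% of all protein-coding genes had one. *Gata1* was the member without a peak. The other members had 14 peaks in the window and 16 peaks in the window or the gene body. The pro-erythroblast list of WT cells held a peak in the window at 3 of 6 members (all genes, 3.28%), namely *Gata2*, *Gata4* and *Gata6*. At a score of 100 or more, an FDR of 5% or less or equal numbers of peaks, 2 members (*Gata2* and *Gata4*) were left in the erythroblast list (all genes, 5.48% to 5.84%). In the pro-erythroblast list 0 were left (all genes, 0.00447% to 0.822%). A window of 1 kb left 5 (all genes, 9.32%) and 1 (all genes, 1.31%). *Gata2*, *Gata4* and *Gata6* thus had, as called, a peak in both WT fractions, as did 1.66% of all genes and 50.7% of the 734 genes with a WT CD71+Ter119-/lo peak. Gene bodies gave the same picture, with a peak at 5 of 6 members in WT CD71+Ter119+ cells (all genes, 11.5%) and at 3 of 6 in WT CD71+Ter119-/lo cells (all genes, 5.0%). Within 100 kb, all 6 members had an H3K27me3 peak in WT CD71+Ter119+ cells, a window in which 43.9% of genes had one, and 3 of 6 in WT CD71+Ter119-/lo cells (all genes, 36.5%).

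**Figure D1:**
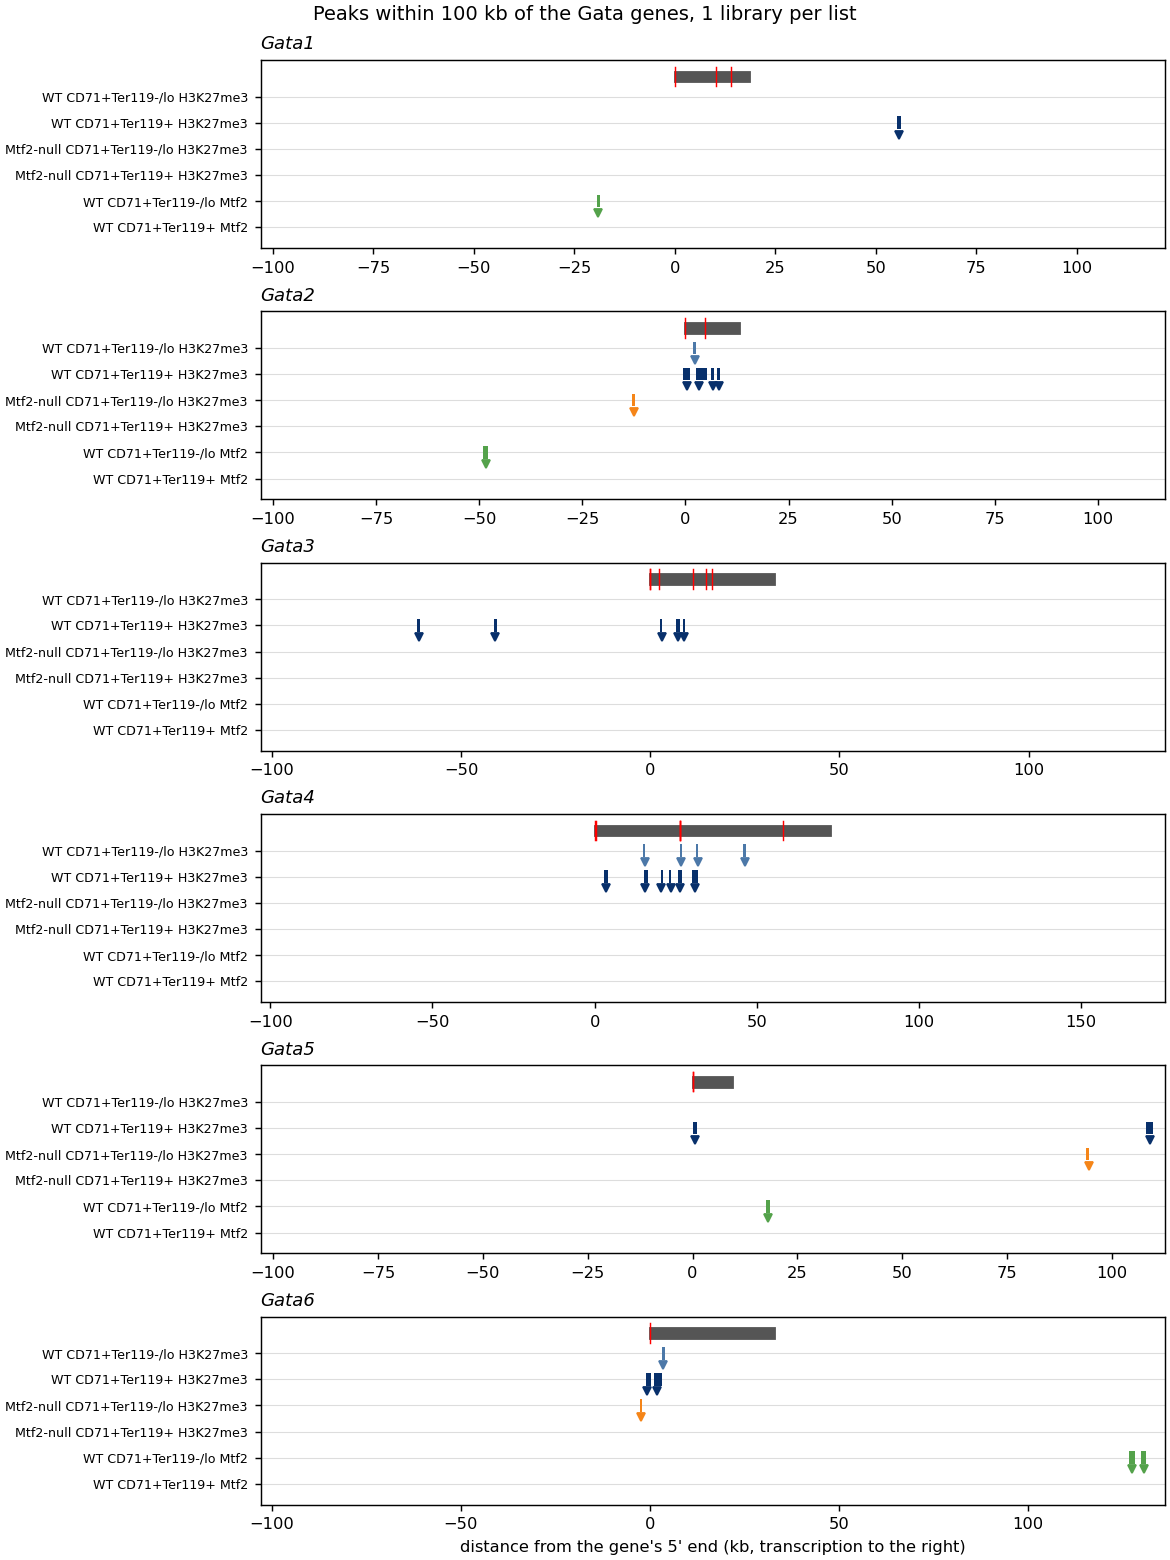
Peaks of the 6 lists around each *Gata* gene, by distance in kb from the gene's 5′ end with transcription to the right. Grey bars are the genes, red ticks their start sites, coloured bars the peaks to scale and triangles their summits, and the WT CD71+Ter119+ H3K27me3 peaks lie over every gene but *Gata1*, whose only such peak is 36.5 kb beyond its 3′ end.

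*Gata1*, the master regulator of red cell and megakaryocyte development (X:7536386-7555197, − strand, ENSMUSG00000031162.8), had no peak of any list in its gene body or within 5 kb of its 3 TSS. A window without any peak was the common state, found at 17270 genes (77.2%). Genes on chromosome X had few WT CD71+Ter119+ peaks in the window, 19 of 932 (2.04%). The nearest H3K27me3 peak in WT CD71+Ter119+ cells (X:7498881-7499901) lay 36.5 kb beyond the 3′ end of *Gata1*, inside *Pcsk1n*, which encodes an inhibitor of a prohormone convertase, with its summit 2.31 kb downstream of a *Pcsk1n* TSS. It held 34 tags (23.5 to 47.5) at a score of 69.3 and an FDR of 14.1%. The other peak in the neighbourhood was a Mtf2 peak in WT CD71+Ter119-/lo cells of 769 bp and 27 tags, 18.6 kb upstream of the gene.

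*Gata2*, needed for hematopoietic stem and progenitor cells (6:88143885-88157024, + strand, ENSMUSG00000015053.8), carried the widest H3K27me3 cover within 5 kb of a TSS in WT CD71+Ter119+ cells, while over the window and gene body *Gata4* had more (6.80 kb against 5.59 kb). In that list 4 *Gata2* peaks lay between 0.531 kb upstream of its 5′ end and 8.38 kb downstream, and together they covered 5589 bp of the TSS window. Only 29 of 22380 genes (0.130%), *Gata2* included, had as much cover in this list. At least 2 peaks in the window were found at 2.30% of genes.
The first peak (6:88143354-88144923) spanned the upstream TSS and held 59 tags (44.9 to 76.1) at a score of 101. The second (6:88146413-88149063) spanned the downstream TSS at 88148658, was the longest of the family at 2651 bp, and held 114 tags (94.0 to 137) scoring 133 with 8.99-fold enrichment. It ranked 897 of 4490 peaks by score. Both summits were in introns. The third peak (25 tags, score 64.8) had its summit in a coding exon and the fourth (22 tags, score 55.7) in an intron, 1.85 kb and 3.46 kb downstream of the nearest TSS. The peaks on the start sites were thus the strong ones, with an FDR of 4.95% and 3.23%, against 17.7% and 26.8% for those further into the gene.

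In WT CD71+Ter119-/lo cells *Gata2* had 1 peak (6:88145653-88146336), in the intron between its 2 start sites. It held 17 tags (9.90 to 27.2) over 684 bp at a score of 55.1 and an FDR of 12.3%. The peak shared no base with the CD71+Ter119+ peaks: it filled part of the gap between the first and second, 729 bp from the one and 76 bp from the other. Its density of 1.31 lay between those of the CD71+Ter119+ peaks beside it, 1.25 and 1.43. The lists differ in level, with a median peak density of 1.42 in WT CD71+Ter119-/lo and 1.19 in WT CD71+Ter119+ cells. The peak was thus below the median of its list and those beside it above theirs, and the densities do not show equal amounts of the mark.

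*Gata3*, the regulator of T helper cells (2:9778705-9811661, − strand, ENSMUSG00000015619.9), had 3 peaks in the gene in WT CD71+Ter119+ cells and none in CD71+Ter119-/lo cells. They held 21, 34 and 23 tags over 651, 1063 and 700 bp and lay in introns, with summits 2.55 and 4.06 kb upstream of the TSS at 9800227 and 0.778 kb downstream of the TSS at 9809411. The strongest, the second, had a score of 74.2 and ranked 1991 of 4490, and the first had a score of 50.6, next to the caller's floor of 50. The first and second summits lay 0.106 kb upstream and 0.026 kb downstream of a TSS of *4930412O13Rik*, which runs within the same locus. The third summit lay within *9230102O04Rik* as well, and the *Gata3* TSS at 9809411 belongs to non-coding transcripts only. None of the peaks can therefore be assigned to *Gata3* alone. A further pair of WT CD71+Ter119+ peaks lay 40.4 and 60.9 kb upstream in *Taf3*, a gene of the general transcription factor TFIID. The higher-scoring of that pair (score 59.7, 24 tags) had its summit 2.55 kb from a *Taf3* TSS.

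*Gata4*, a regulator of heart and endoderm development (14:63817759-63890529, − strand, ENSMUSG00000021944.8), had the most peaks, 6 in WT CD71+Ter119+ cells and 4 in WT CD71+Ter119-/lo cells, all within the gene. The 6 erythroblast peaks were spread over 28.9 kb and covered 23.5% of that stretch, whereas the 4 *Gata2* peaks covered 62.7% of 8.91 kb. They held 80, 39, 23, 25, 54 and 36 tags in order of position. The strongest (14:63858683-63860446) had 80 tags (63.4 to 99.6), a score of 110 and a density of 1.51, with its summit in a coding exon 4.48 kb downstream of the TSS at 63864085. The peak over the cluster of 3 start sites around that position held 39 tags, and the intronic peak 10.7 kb upstream of it held 54.
The 4 pro-erythroblast peaks held between 18 and 21 tags at scores from 56.0 to 65.6. Of these, 3 overlapped an erythroblast peak and shared 688, 576 and 550 bp with it. The fourth, which lay furthest into the gene with its summit 46.4 kb from the 5′ end, had no erythroblast counterpart. *Gata4* was the member whose peaks in the WT fractions coincided most.

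*Gata5*, a regulator of heart and endoderm formation (2:180059838-180069404, − strand, ENSMUSG00000015627.4), had 1 peak at the gene in WT CD71+Ter119+ cells (2:180068412-180069398). It spanned the TSS at 180069259 and stopped 0.006 kb short of the TSS at 180069404. It held 35 tags (24.4 to 48.7) at a score of 57.8, and had its summit in a coding exon 0.403 kb downstream of a TSS. The locus also holds *Gm14318*, and the summit fell in both genes. The cover of 987 bp was modest, with 1964 genes (8.78%) covered at least as much. The second WT CD71+Ter119+ peak of the neighbourhood (2:179959687-179961153) lay 98.7 kb away on the TSS of *Lama5*, which encodes a laminin chain, and with a score of 197 and 65 tags it was the highest-scoring of the 34 peaks. Its distance and its place on another gene's promoter set it apart from the peaks at *Gata5* itself.

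*Gata6*, a regulator of endoderm and heart (18:11052508-11085633, + strand, ENSMUSG00000005836.8), had 2 peaks in WT CD71+Ter119+ cells, with summits on either side of its single TSS. The upstream peak (18:11051430-11052746) spanned the TSS and held 42 tags, with its summit 0.806 kb before the TSS. The downstream peak held 91 tags (73.3 to 112) over 2075 bp with its summit in a coding exon 1.73 kb after it. Although the second held more tags at a density of 1.46 against 1.06, its score was the lower one, 69.8 against 73.0, and its fold enrichment was 5.65 against 9.24. Together they covered 3392 bp, 33.9% of the window. In WT CD71+Ter119-/lo cells the gene had 1 intronic peak of 18 tags (10.7 to 28.4), which shared 79 bp with the edge of the second erythroblast peak.

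**Figure D2:**
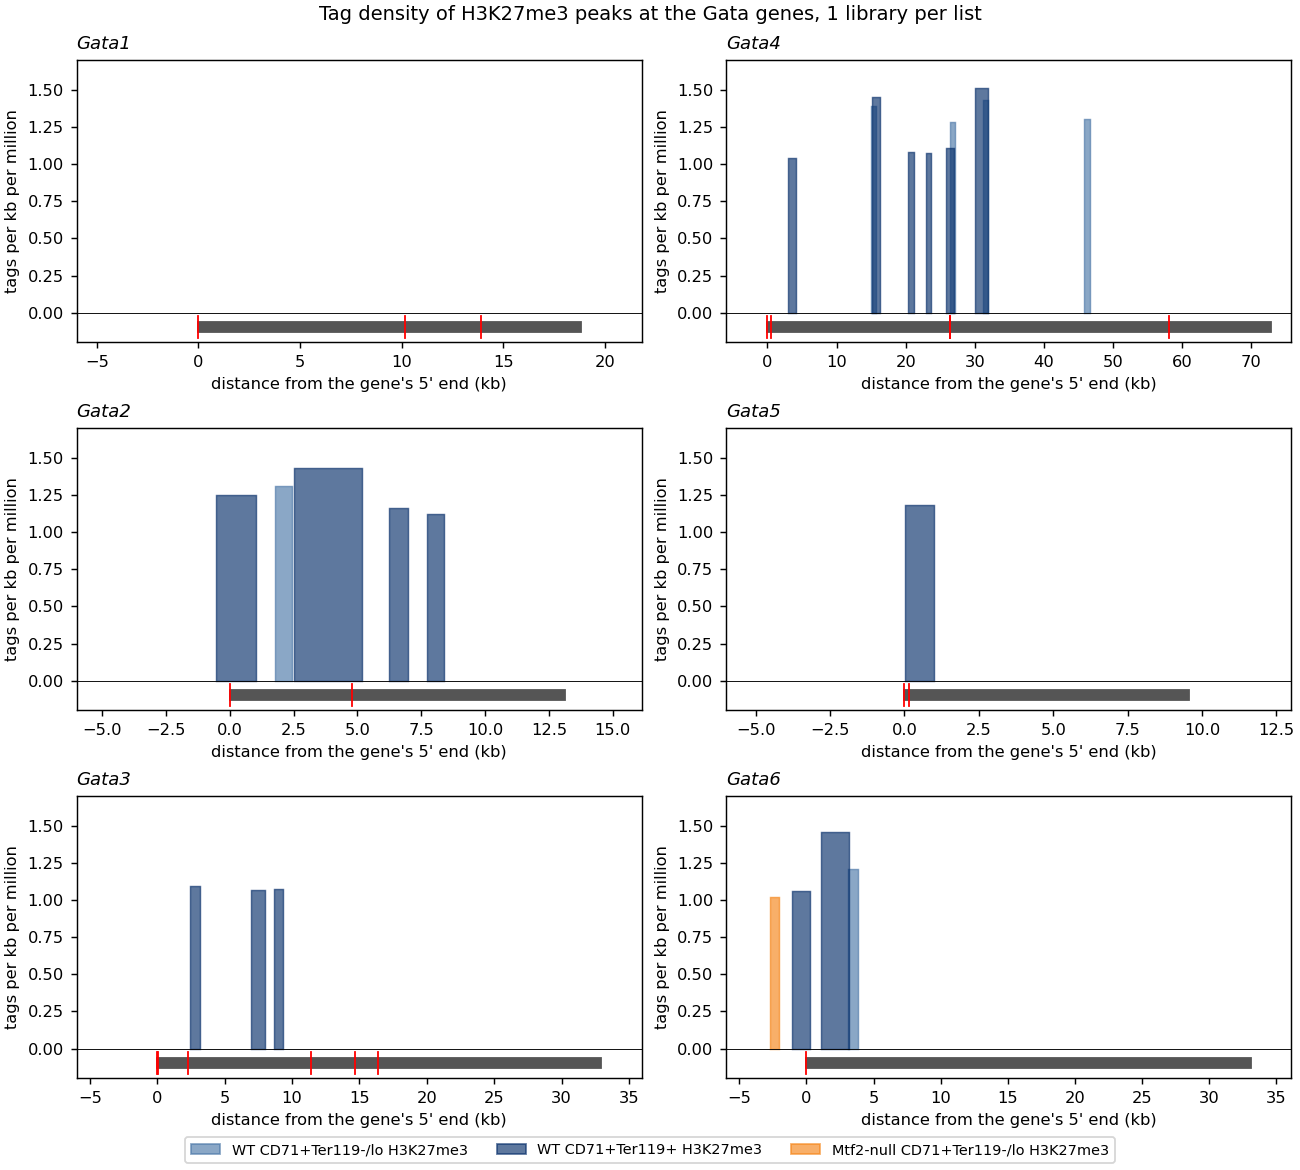
H3K27me3 peaks at each *Gata* gene, as bars whose width is the peak and whose height is its density (tags per kb per 1000000 unique tags), by distance from the gene's 5′ end in kb. Grey bars are genes and red ticks start sites, and the densest WT CD71+Ter119+ peaks, between 1.43 and 1.51, are the second of *Gata2*, the downstream one of *Gata6* and 2 of *Gata4*.

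By bases covered within 5 kb of a TSS in WT CD71+Ter119+ cells, the order was *Gata2* (5589 bp), *Gata4* (4390 bp), *Gata6* (3392 bp), *Gata3* (2414 bp), *Gata5* (987 bp) and *Gata1* (0 bp). In WT CD71+Ter119-/lo cells it was *Gata4* (1028 bp), *Gata6* (785 bp) and *Gata2* (684 bp), with 0 bp at the others. The windows themselves differed in length, from 10.0 kb at *Gata6* to 30.6 kb at *Gata4*, and as a share of the window *Gata2* (37.8%) and *Gata6* (33.9%) led in erythroblasts, ahead of *Gata4* (14.3%), *Gata5* (9.73%) and *Gata3* (9.16%). With 1 library per list, no error can be put on these orders. The number of unique tags was 18945784 in the WT CD71+Ter119-/lo library and 30054186 in the WT CD71+Ter119+ library, and the part of depth in the difference between fractions was not tested.

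**Figure D3:**
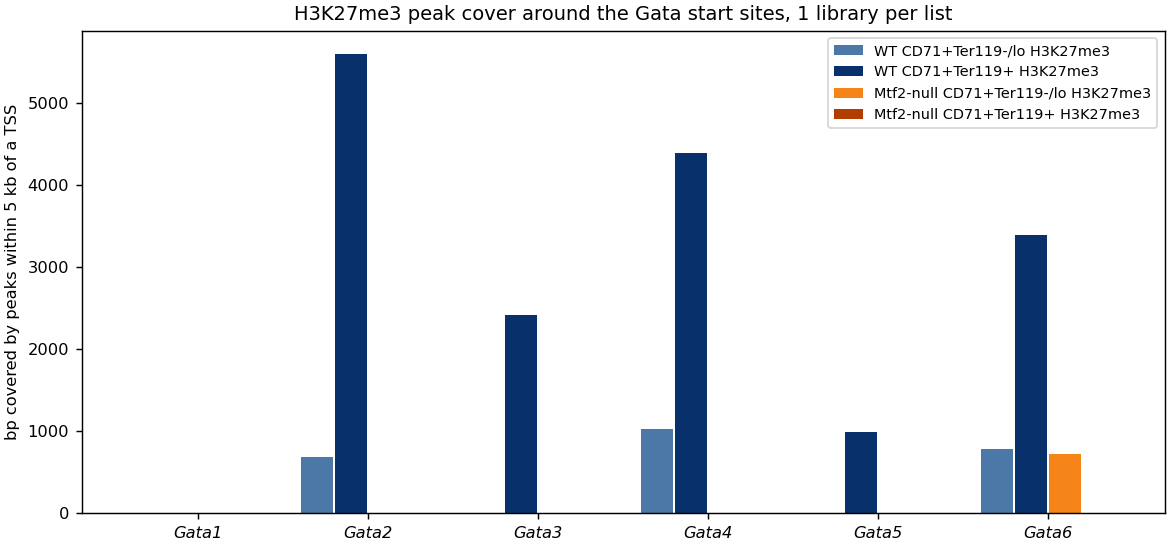
Bases covered by H3K27me3 peaks within 5 kb of a TSS (y axis, bp) for each *Gata* gene in the 4 H3K27me3 lists, 1 library each. Cover in WT CD71+Ter119+ cells falls from 5589 bp at *Gata2* to 987 bp at *Gata5*, *Gata1* has none in any list, and the Mtf2-null CD71+Ter119+ list has none at any gene.

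The question of what remained without Mtf2 was addressed by the Mtf2-null lists. In Mtf2-null CD71+Ter119+ cells no *Gata* gene had an H3K27me3 peak within 5 kb of a TSS (all genes, 1.63%), in the body (4.22%) or within 100 kb (31.3%). All 5 members with a WT peak in the window therefore had none, as was the case for 98.8% of the 2581 genes with a WT peak. In CD71+Ter119-/lo cells 2 of the 3 members with a WT peak, *Gata2* and *Gata4*, had no Mtf2-null peak in the window, and over all genes with a WT peak the share was 94.7%. These shares are set against each other as a description only.

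*Gata6* was the exception, with 1 Mtf2-null CD71+Ter119-/lo peak in the window (18:11049760-11050473), where 1.27% of all genes had one. No member had a peak of this list in its body (2.37%). The *Gata6* peak held 27 tags (17.8 to 39.3) over 714 bp at a score of 53.5, lay 2.27 kb upstream of the TSS by its summit, and shared no base with a WT peak. The caller gave it an FDR of 100%, the value of every peak in that list. Within 100 kb, 3 of 6 members had a peak in this list (all genes, 17.0%), the other two being a peak of 26 tags 12.3 kb upstream of *Gata2* and a peak of 26 tags 84.3 kb from *Gata5*. Neither lay within 5 kb of a TSS of any gene, and none of the 6 pro-erythroblast or 20 erythroblast WT peaks around *Gata* genes overlapped a Mtf2-null peak of its fraction, against 0.300% and 0.624% of all WT peaks.

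The Mtf2-null libraries were deeper than their WT counterparts, with 37026535 unique tags for pro-erythroblasts and 67169672 for erythroblasts. At its WT density the strongest *Gata2* peak would have held 255 tags in the Mtf2-null CD71+Ter119+ library, and the weakest peak at the gene 49.2 tags, where that list's smallest peak held 35. The densities of the 20 WT CD71+Ter119+ peaks exceeded those of between 87.0% and 99.9% of the 5791 peaks that were called in Mtf2-null CD71+Ter119+ cells. These lists differ in level, with a median density of 1.19 in WT and 0.8885 in Mtf2-null CD71+Ter119+ cells. The 5th percentile of the whole WT list, 1.02, was above that Mtf2-null median, so high shares are not particular to the *Gata* peaks. The kinds of region called also differed between these lists, since none of the Mtf2-null CD71+Ter119+ summits lay in CpG island-like sequence and 47.6% of the WT summits did, and the IgG libraries differed too. The part of these differences in the missing peaks was not tested.

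**Figure D4:**
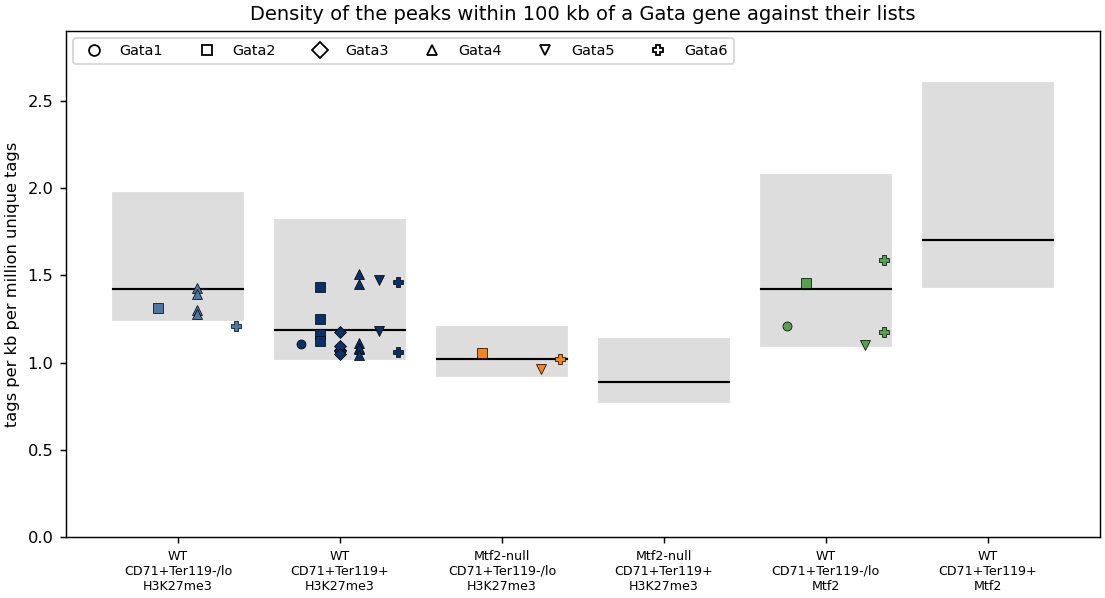
Density of each peak within 100 kb of a *Gata* gene (symbols; y axis, tags per kb per 1000000 unique tags) against the median (line) and the 5th to 95th percentile (grey) of its list. The *Gata* peaks lie within these percentiles, other than the WT CD71+Ter119-/lo peak of *Gata6*, which lies below them at 1.21, and the Mtf2-null CD71+Ter119+ H3K27me3 and WT CD71+Ter119+ Mtf2 lists hold none.

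Mtf2 itself was not called at any *Gata* gene. The Mtf2 libraries of WT CD71+Ter119-/lo and CD71+Ter119+ cells had 34.6% and 39.7% unique tags, against 78.4% to 85.4% for H3K27me3. The FDR of the WT CD71+Ter119+ Mtf2 peaks ranged from 6.94% to 100%. The part of library quality in the missing Mtf2 peaks was not tested. The TSS windows of all 6 members were free of Mtf2 peaks in WT CD71+Ter119-/lo cells (all genes, 8.44%) and in WT CD71+Ter119+ cells (1.51%), and so were the gene bodies (14.8% and 4.38%). Within 100 kb, 4 of 6 members had a Mtf2 peak in CD71+Ter119-/lo cells, a window in which 78.2% of all genes had one, none in CD71+Ter119+ cells (31.2%) and so none in both (29.0%). *Gata3* and *Gata4* were the members without any. The 5 peaks lay between 7.93 kb (*Gata5*, 35 tags, score 79.8) and 96.8 kb (*Gata6*, 46 tags, score 75.4) from the gene, and none reached the upper part of its list of 28918 by score. The highest rank was 14555, for the *Gata5* peak. The peak near *Gata2* was 47.9 kb upstream, with 50 tags and a score of 57.8.
None of the 6 WT CD71+Ter119-/lo H3K27me3 peaks around the members overlapped a Mtf2 peak, whereas 58.9% of that H3K27me3 list did, and none of the 20 WT CD71+Ter119+ peaks did, against 1.34% of the list. H3K27me3 and Mtf2 of a fraction were called against the same IgG library, so their lists are not independent.

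Base composition was a property that the choice of genes did not use, and *Gata1* was the member without a CpG island-like start site. In the 1 kb around its 3 start sites the observed over expected CpG ratio was 0.307, 0.230 and 0.133, at percentiles of 37.0, 25.1 and 8.78 among the 70064 start sites of all protein-coding genes. Sequence counted as CpG island-like when its ratio was 0.6 or higher and its GC content 50% or higher, and 39.2% of all start sites met this. No *Gata1* start site did. *Gata2* (ratios 0.766 and 0.681), *Gata5* (0.693 and 0.737) and *Gata6* (0.657) did at every start site, *Gata4* at 3 of 6 and *Gata3* at 1 of 6. Single start sites of *Gata3* (0.146 and 0.225) and *Gata4* (0.150, 0.173 and 0.174) had ratios inside the range of *Gata1*.
The 5 members with at least 1 island-like start site were also those with a peak in WT CD71+Ter119+ cells. This match rests on *Gata1* alone, which is also the only member on chromosome X, where 2.04% of genes had such a peak. It was not tested. Over all genes the peak was found at 18.8% of 10948 genes with a CpG island-like TSS and at 4.62% of 11432 genes with none, and in WT CD71+Ter119-/lo cells at 4.32% and 2.28%.

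**Figure D5:**
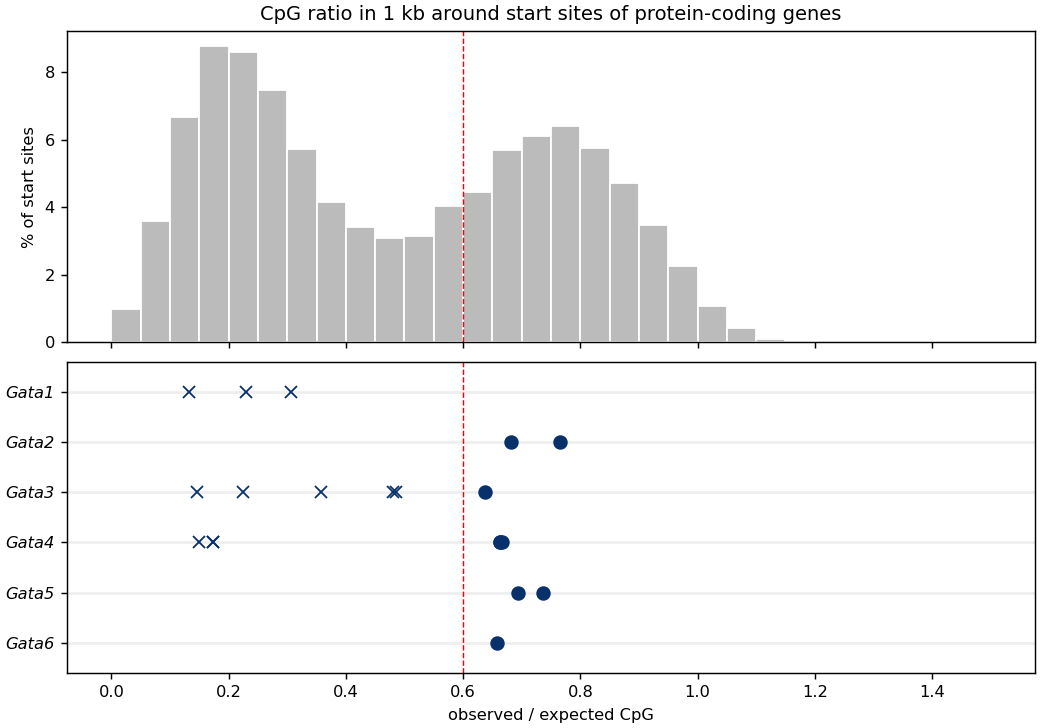
Upper panel, distribution of the observed over expected CpG ratio in 1 kb around the start sites of all protein-coding genes (y axis, % of start sites). Lower panel, the start sites of each *Gata* gene, filled where CpG island-like and crossed where not; the dashed line marks the ratio of 0.6, and *Gata1* lies between 0.133 and 0.307.

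The peaks followed the start sites only in part. In WT CD71+Ter119+ cells 8 of the 16 peaks at the genes (50%) had their summit in CpG island-like sequence, against 47.6% of the list, and 11 of the 16 summits lay in introns, 4 in coding exons and 1 outside the gene. *Gata2* had both kinds, with a CpG ratio of 0.819 and 0.669 at the summits of its strong peaks and 0.38 and 0.25 at the weak ones. The flank peak in *Pcsk1n* near *Gata1* was island-like too (0.684). In WT CD71+Ter119-/lo cells 2 of 6 summits were island-like, both in *Gata4*, where the list as a whole had 4.35%.

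GATA factors bind regulatory regions of their own family, and their motif was searched on both strands, spelled AGATAA, with T also accepted as the first letter and G as the last. Overlapping matches were counted. In the 300 bases around the summit it was present at 2 of 16 WT CD71+Ter119+ peaks of the *Gata* genes (12.5%), the fourth *Gata2* peak and the upstream *Gata6* peak, against 19.4% of the list. In WT CD71+Ter119-/lo cells it was present at 1 of 6 peaks, in *Gata4*, against 51.3% of the list. Between 250 bases before and 50 after a start site, 26.4% of all start sites held a match. Among the members this was the case for the *Gata1* TSS at 7541292 with 2 matches, for *Gata3* at 9797026 and 9800227 with 1 each, and for *Gata4* at 63890529 with 2. No start site of *Gata2*, *Gata5* or *Gata6* held one.

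By the bases covered within 5 kb of a TSS in the 6 lists, the genes most like *Gata2* were *Psd*, *Rarg* and *Gm1337*, which differed from it by 85, 104 and 114 bp summed over the lists. Those most like *Gata4* were the ovarian and eyelid regulator *Foxl2*, the signalling inhibitor *Smad6* and the eye regulator *Pax6* (203, 320 and 402 bp). For *Gata6* they were *Itsn1*, *1110006G14Rik* and *Pank4* (245, 518 and 636 bp). The nearest to *Gata3* were *4930412O13Rik* and *9230102O04Rik* at 0 bp, which lie in the same locus and share its peaks, and *C530028O21Rik* (1 bp). For *Gata5* they were *Gm14318*, which overlaps it, and *Ccdc13*, both at 0 bp, and *Acot2* (1 bp). These distances rest on peak cover alone.

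Of 12 genes that work with GATA factors, 1 had a WT CD71+Ter119+ peak within 5 kb of a TSS, *Zfpm2* (25 tags, score 59.8), the cofactor of *Gata4* in the heart, and none had one in WT CD71+Ter119-/lo cells, where all genes had 11.5% and 3.28%. Its erythroid paralogue *Zfpm1* and the complex partners *Tal1*, *Lmo2* and *Ldb1* had no peak of any list. Of 9 other genes with GATA-type zinc fingers, 1 had a peak in WT CD71+Ter119+ cells, *Trps1* (39 tags, score 86.1), and *Mta1* had a Mtf2 peak in WT CD71+Ter119-/lo cells (all genes, 8.44%). The share in both groups of genes was near that of all genes.

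Of 13 matched erythroid genes, among them the *Gata1* targets *Klf1*, *Epor*, *Alas2* and *Slc4a1*, 2 had a WT CD71+Ter119+ peak, a share near the 11.5% of all genes. They were *Bcl11a* (26 tags, score 60.4), a repressor of globin genes, and *Ank1* (154 tags, score 236), a membrane skeleton gene with start sites used in other tissues, which also had a WT CD71+Ter119-/lo peak. *Tfrc*, which encodes CD71, had none. Of 16 genes of progenitors and other blood lineages, 9 had a WT CD71+Ter119+ peak (all genes, 11.5%), *Fli1*, *Cebpa*, *Pax5*, *Meis1*, *Mecom*, *Hhex*, *Ebf1*, *Bcl11b* and *Tcf7*. None of the 16 had one in WT CD71+Ter119-/lo cells (3.28%), where *Kit* and *Spi1* had a Mtf2 peak (8.44%). The difference between the groups was not tested. The best peaks of this group were at *Cebpa* (score 234) and *Pax5* (score 198), above the score of 133 at *Gata2*.

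Of 14 heart and endoderm regulators, 7 had a WT CD71+Ter119+ peak, *Nkx2-5*, *Hand1*, *Hand2*, *Foxa1*, *Foxa2*, *Hnf4a* and *Sox17*, and 5 had a WT CD71+Ter119-/lo peak, *Tbx5*, *Hand1*, *Foxa1*, *Sox17* and *Cdx2*. The background for these counts is 11.5% and 3.28% of all genes. *Gata4* and *Gata6* shared with *Hand1*, *Foxa1* and *Sox17* a peak in both fractions (all genes, 1.66%). The pattern was not particular to heart and endoderm genes, since *Gata2* and *Ank1* had it too and *Gata5* did not. In Mtf2-null CD71+Ter119+ cells none of the genes of these groups had a peak in the window (all genes, 1.63%). *Nkx2-5* alone had one in the Mtf2-null CD71+Ter119-/lo list (all genes, 1.27%). With shares this low among all genes, these counts do not set the groups apart. The groups were drawn up with results of these data known, and the counts describe them only.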

How the data were processed

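H3K27me3 and Mtf2 ChIP-seq libraries of e14.5 FL fractions were analysed from the deposited peak lists. The authors' reads were aligned to mm9 by Bowtie2 2.2.3, and MACS 1.3.7 called peaks against the IgG library of the fraction and genotype, at a p cutoff of 1e-05 per the file headers. The methods state that experiments were replicated, and whether replicates were pooled is not given in the sources used here. The deposited tag values are counts of reads per peak, not normalized for depth. The deposited score is −10 log10 of p, the deposited fold column gives ChIP over local background, and the deposited FDR is a percent estimated by the authors' caller with ChIP and IgG exchanged. One line of the design text names H3K4me3, while the labels and the other lines name H3K27me3, which was used.

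Positions count from 1 on NCBIM37 (mm9), with genes from GENCODE M1. The summit is the start plus the caller's offset. A peak counted when it shared at least 1 base with a window. CpG content was read in 1 kb around summits and start sites. Sequences were read from the assembly. Overlap, cover and motif steps were tested on simulated data and gave the known answer in 500 of 500, 500 of 500 and 100 of 100 cases. Of 65 listed genes, *Ahsp* was not matched, and *Spi1* was matched by an older symbol from RefSeq (GRCm38.p6), from which no coordinate was used. Some erythroid genes are not reported here. Scripts ran under Python 3.11.15 with pandas 2.3.3, numpy 2.4.6, matplotlib 3.10.9 and scipy 1.17.1.

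The members, the gene lists and the rules were chosen with earlier results of these data known. The 6 *Gata* genes are named with every peak at the gene and the highest-scoring flank peaks, list genes where a list has a peak within 5 kb of a TSS, flanking genes where a flank peak lies near their TSS, and the 3 genes of most similar cover. *Zfpm1*, *Tal1*, *Lmo2*, *Ldb1*, *Klf1*, *Epor*, *Alas2*, *Slc4a1* and *Tfrc* are named outside that rule, as genes without a peak. The alternatives were other score and FDR thresholds, equal numbers of peaks, other windows and start sites, the summit in place of the peak, and a larger overlap.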

Additional observations from a re-analysis of the deposited data

Results flagged for a closer look

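The H3K27me3 peaks within 100 kb of *Gata5* moved in opposite directions in the fractions. From WT to Mtf2-null cells the number rose by 1 in CD71+Ter119-/lo cells, from 0 to 1, and changed by -2 in CD71+Ter119+ cells, from 2 to 0. Of those 2 WT peaks, 1 lay at *Gata5* and the other 98.7 kb away on the TSS of *Lama5*. With 1 library per condition the difference was not tested. The CD71+Ter119-/lo peak held 26 tags at a score of 50.3 and an FDR of 100%, and lay 84.3 kb from the gene.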

How the results depend on the processing

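No paired analysis was possible because there was 1 library per condition and no test was made, and for the same reason no replicate could be left out. Of 58 recomputed counts whose reported value was above 0, 24 stayed within 1.5 times that value and 34 moved further. The other 54 had a reported value of 0, which these settings could not lower, and say nothing of stability. Keeping peaks that scored 100 or more, peaks with an FDR of 5% or less, or equal numbers of peaks (1407, as in the shortest list) gave 2 members, *Gata2* and *Gata4*, with a WT CD71+Ter119+ peak in the TSS window, in the gene body and without a Mtf2-null peak, and 4 peaks within 100 kb. Under each of these settings the WT CD71+Ter119-/lo list had 0 members and 0 peaks in every window, so 0 members without a Mtf2-null peak. Over all genes the share with a peak in the TSS window was then 5.54%, 5.48% and 5.84% in WT CD71+Ter119+ cells and 0.121%, 0.00447% and 0.822% in WT CD71+Ter119-/lo cells. The Mtf2-null CD71+Ter119-/lo counts were 0 under the score and FDR thresholds, and the Mtf2 CD71+Ter119-/lo peaks within 100 kb were 0 under the score and the equal number. A TSS window of 1 kb left 1 member in WT CD71+Ter119-/lo cells, *Gata4*, also as the 1 without a Mtf2-null peak, and 0 in Mtf2-null cells, while WT CD71+Ter119+ stayed at 5. A flank of 50 kb left 3 Mtf2 peaks. The peaks at *Gata3*, *Gata5* and *Gata6* all scored below 100. Tags of the pro-erythroblast peaks, between 17 and 21, limit what can be ranked there.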

Other observations

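The ChIP-qPCR primers listed for *Gata* genes were placed on NCBIM37 by exact match, and none of the amplicons overlapped a peak of any of the 6 lists. The pair named for *Gata1* matched once, at X:7544875-7544951, 0.123 kb downstream of the *Gata1* TSS at 7545036 in a 5′ untranslated exon. The pair named for *Gata3* matched once, at 2:9798793-9798943, in an intron of *Gata3* 1.36 kb downstream of a TSS and 3.41 kb from the nearest WT CD71+Ter119+ H3K27me3 peak. The pair named for *Gata2* is shown because its place was not at that gene.
Forward: cttaccttggatatggagctgg
Reverse: tttgtgtactcagaaggcagag
It matched 1 site in the genome, X:7553601-7553679, which lies in *Gata1*, 1.56 kb downstream of the *Gata1* TSS at 7555197 and 53.7 kb from the nearest erythroblast H3K27me3 peak of WT cells. In the 100 kb around *Gata2* the best match of either primer had 5 mismatches of 22 bases. The peaks at *Gata2* described above come from the sequencing lists and do not depend on these primers.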
